A study of Mus musculus with 16 samples.

Results

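Vitamin A is stored largely in the liver, which can also make and break down its active form, retinoic acid. Of the genes of this metabolism, 9 were followed here across 4 groups of mouse livers. They are the retinoic acid hydroxylases Cyp26a1 and Cyp26b1, the retinol dehydrogenases Rdh9, Rdh16 and Rdh11, the aldehyde dehydrogenases Aldh1a1 and Aldh1a7, the plasma retinol carrier Rbp4 and the retinoic acid receptor gene Rarb. The 9 were picked by name, with earlier results of these libraries known. Several of them were picked for their difference between TCPOBOP and vehicle in wild-type liver, so in that comparison, and in the difference between strains that contains it, their values are a description without a test. All 9 were found among 24970 genes in the count table and had enough counts to be fitted.

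The study asked what TCPOBOP, a potent activator of mouse CAR (the constitutive androstane receptor), does in mice that carry human receptors instead. Wild-type C57BL/6 Ntac mice and humanized PXR-CAR-CYP3A4/3A7 mice received either the vehicle, corn oil with 2% DMSO, or TCPOBOP at 3 mg/kg in 2 administrations 24 h apart, and livers were taken at 48 h, with 4 livers in each of the 4 groups. PXR and CAR are nuclear receptors that sense foreign compounds, and CYP3A4 and CYP3A7 are human drug-oxidizing enzymes. How the human genes were introduced, or the age and sex of the animals, is not given in the sources used here, and the human transcripts were not analysed here.

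Retinol reaches hepatocytes from the diet, is esterified by the acyltransferase Lrat and stored in lipid droplets of stellate cells, and leaves the liver bound to Rbp4 and transthyretin (Ttr). Retinol dehydrogenases of the Rdh, Dhrs and Adh families interconvert retinol and retinal, and Aldh1a enzymes such as Aldh1a1 oxidize retinal irreversibly to retinoic acid. Retinoic acid binds RAR receptors, which act as partners of RXR receptors on DNA, and Cyp26 enzymes hydroxylate it for removal. Cyp26a1 and Rarb are classic genes that retinoic acid switches on through such DNA elements close to their start sites.

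The start-site sequences of these 2 genes are shown because the element that defines them as retinoic acid targets is found there. RefSeq promoter windows of 300 bases, starting 250 bases before a start site of the gene (GRCm38.p6, the mm10 assembly), were searched on both strands for direct repeats of the retinoid half-site AGGTCA, its variant AGTTCA, or either of them with G as the first base. With 5 bases between the half-sites (DR5), 32 of 32851 windows held a match, or 0.0974% of all windows. Of the 12 windows of the 9 genes, 2 held one, that of Cyp26a1 and that of Rarb. The match lay from -32 to -16 relative to that start on the opposite strand in Cyp26a1 and from -53 to -37 on the gene's own strand in Rarb. The Rarb start used is an internal one, as the annotated gene spans chr14:16430839-17082331 on the minus strand. The Cyp26a1 start used also lies inside the annotated gene, which begins at chr19:37697738. The stretches run 5′ to 3′ on the gene's strand and end at the last base before the start, with the DR5 in capitals, at chr19:37697658-37697807 (plus strand) and chr14:16575477-16575626 (minus strand).
Cyp26a1: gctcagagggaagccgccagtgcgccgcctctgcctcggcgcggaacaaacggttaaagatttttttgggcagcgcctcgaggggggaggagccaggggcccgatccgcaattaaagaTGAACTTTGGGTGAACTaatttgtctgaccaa
Rarb: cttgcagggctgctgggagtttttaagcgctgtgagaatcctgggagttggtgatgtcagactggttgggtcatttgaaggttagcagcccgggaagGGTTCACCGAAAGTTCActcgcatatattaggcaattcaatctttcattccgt
No match of the DR1, DR2 or DR4 spacing, with 1, 2 or 4 bases between the half-sites, was found in the members' windows; these spacings matched 0.222%, 0.268% and 0.0822% of all windows. A match is a string of letters and was not tested for binding.

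Total counts ran from 30228724 to 37998473 in the wild-type TCPOBOP libraries and from 11827994 to 19483951 in the 12 libraries of the remaining groups, so depth was greatest in 1 group. Levels are given in CPM, counts scaled by TMM to a common library total, and 3 counts corresponded to 0.134 to 0.439 CPM. The labels held in the check genes: mouse Nr1i3, which encodes CAR, was at 100.2 CPM in wild-type and 2.20 CPM in humanized vehicle livers, and the CAR target Cyp2b10 was higher with TCPOBOP in both strains, by 6.05 in wild-type and 2.59 in humanized liver on the log2 scale. In all, 2 libraries stood apart, with a median correlation to the rest of their group of 0.913 for humanized TCPOBOP replicate 1 and 0.915 for wild-type vehicle replicate 2, against at least 0.953 for each of the others. Where leaving out either of them moved a member's TCPOBOP change by over 1.5 times, the value without it is given. Hepatocyte marker genes summed to 22539 to 35174 CPM in wild-type TCPOBOP livers, below every other liver, against 50499 to 86701 CPM with vehicle in that strain and 38379 to 51935 CPM over the humanized livers. Of the 5 markers 1, Alb, fell in wild-type liver, none of them was at 0 in any group, and the part of this shift in the members' values was not tested. The labels do not say that replicates shared a litter or a day, so the spread is that between these livers.

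Relative to transcript length, which allows genes to be compared, Rbp4 was the most abundant of the 9 genes in wild-type vehicle liver, at 2525 CPM per kb (± 465 SD, n = 4). Aldh1a1 followed at 394 ± 186 and Aldh1a7 at 97.2 ± 13.2 CPM per kb. Rdh11, Rdh9, Cyp26a1 and Rdh16 came next, at 28.9, 26.5, 23.2 and 22.8 CPM per kb, and these 4 did not differ from each other beyond their spread. Cyp26b1 was at 3.35 ± 1.19 and Rarb was lowest at 1.48 ± 0.313 CPM per kb. With TCPOBOP in wild-type liver the order changed: Rdh11, at 55.1 CPM per kb, stood above Rdh9 and Rdh16, at 2.74 and 2.29, and Rarb, at 5.25, stood above all 3 of Rdh9, Rdh16 and Cyp26b1, the last at 0.318.

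Between TCPOBOP and vehicle in wild-type liver, 7 of the 9 genes had groups without overlap, 4 of them higher with TCPOBOP (Rdh11, Aldh1a1, Aldh1a7 and Rarb) and 3 lower (Cyp26b1, Rdh9 and Rdh16). Of all 12913 genes tested, 20.9% had groups without overlap in this comparison (12.5% higher, 8.4% lower), and since the genes were picked with it known, nothing is read from the count. Their median log2 change was 0.65, against -0.02 for all genes tested. In humanized liver, where the members were tested, Aldh1a1 and Aldh1a7 rose and Cyp26b1 fell, and 6 did not pass an adjusted p of 0.05 by edgeR's quasi-likelihood test. That is 3 of 9 called, against 2.51% of all genes tested (1.32% higher, 1.19% lower). Groups without overlap were found for these 3 and for Rdh9, which was higher, against 9.95% of all genes (4.6% higher, 5.35% lower). The median log2 change of the 9 was 0.14 there, against 0.02 over all genes. Since the genes were picked with results of these libraries known, nothing is read from these counts either.

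**Figure D1:**
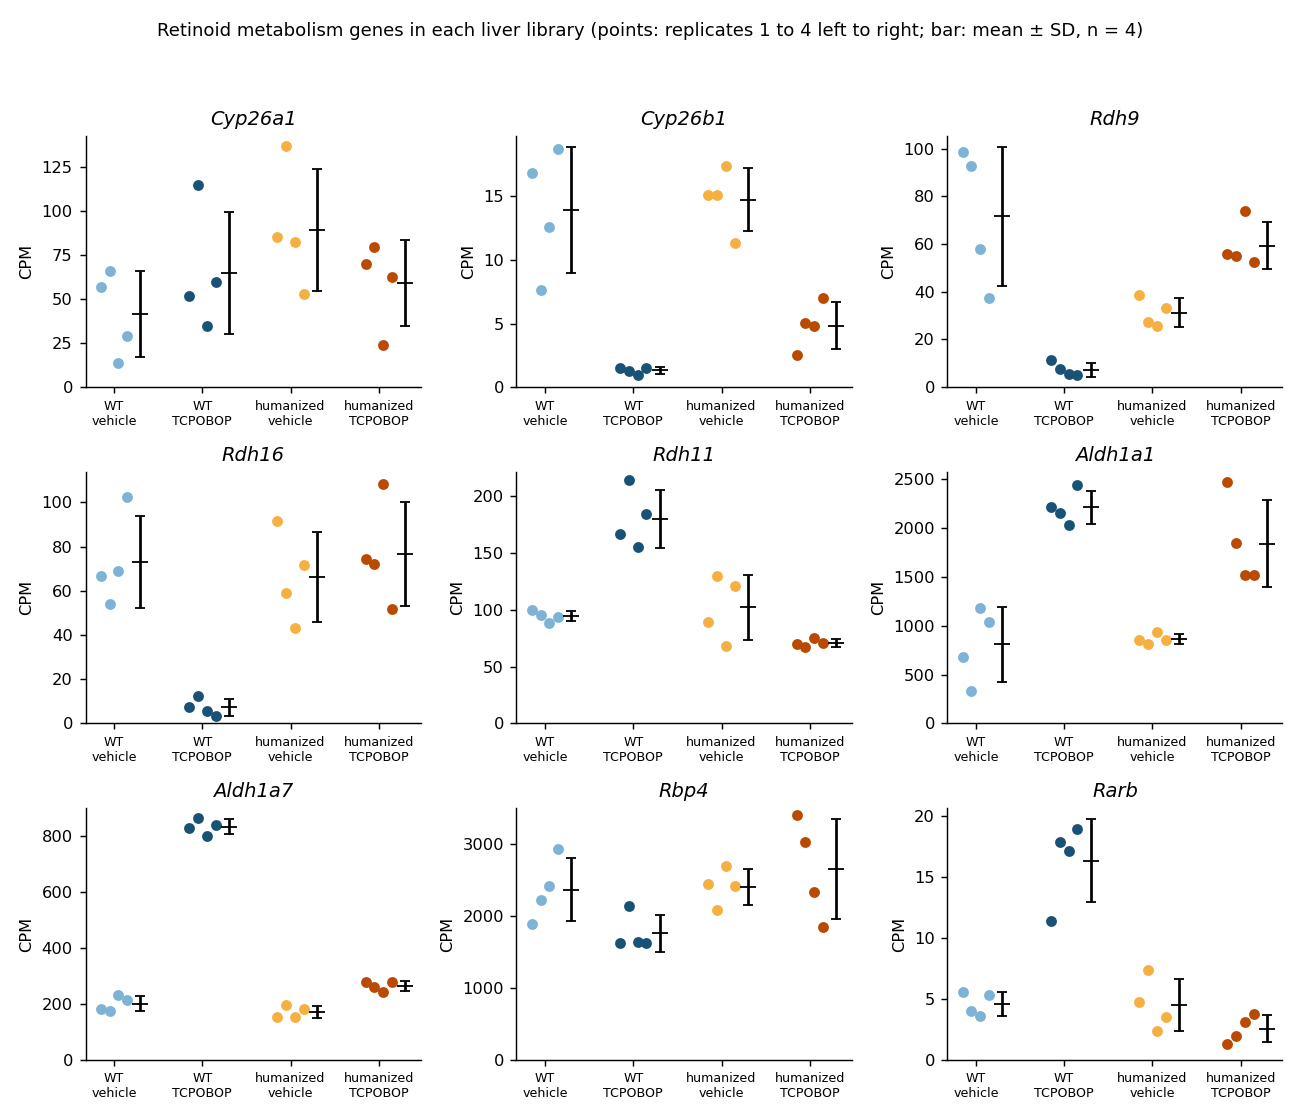
CPM of each of the 9 genes (vertical axes) in every library, with wild-type livers in blue and humanized livers in orange, paler for vehicle; points are livers and the bar is the mean ± SD of 4. The wild-type TCPOBOP points of Rdh9 and Rdh16 sit at 3.56 to 12.6 CPM, below every other liver, while the points of Cyp26a1 and Rbp4 overlap between treatments in both strains.

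Among the retinoic acid hydroxylases, Cyp26b1 was lower with TCPOBOP in both strains and Cyp26a1 showed no separation. Cyp26b1 was at 16.9, 7.60, 12.6 and 18.7 CPM in the wild-type vehicle livers and at 1.48, 1.30, 0.982 and 1.54 CPM in the wild-type TCPOBOP livers, the latter resting on 21 to 32 counts a library. It was at 15.1, 15.1, 17.4 and 11.4 CPM in humanized vehicle and 2.51, 5.02, 4.81 and 6.99 CPM in humanized TCPOBOP livers. In each strain all 4 TCPOBOP livers were below all 4 vehicle livers, and the vehicle livers of the strains overlapped. The difference was 10.5-fold in wild-type liver (log2 change -3.39 ± 0.31 SE). In humanized liver Cyp26b1 fell 3.02-fold, by 1.60 ± 0.30 on the log2 scale (edgeR adjusted p = 0.00938). This call held under all 23 alternative settings, with adjusted p between 8.81e-05 and 0.0341, and the change was -1.37 (adjusted p = 0.0106) when humanized TCPOBOP replicate 1 was left out. Without wild-type vehicle replicate 2 the wild-type change was -3.59.

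Cyp26b1 is known in liver from stellate cells, so its values are set beside 14 stellate cell markers. With vehicle, the summed marker level was 430.0 to 567.1 CPM in wild-type and 416 to 438 CPM in humanized livers. With TCPOBOP, it was 354 to 470.1 CPM in wild-type and 146 to 352 CPM in humanized livers. Every humanized TCPOBOP liver was thus below every other liver in the summed markers, whereas the wild-type groups overlapped. In humanized liver, 3 of the 14 markers fell (Colec11, Ecm1 and Hand2), beside 1.19% of all genes. The median log2 change of the 14 was -0.68. In wild-type liver none of the 14 was called, with a median of -0.19. As a percentage of the summed markers, Cyp26b1 was at 1.34 to 4.01 with vehicle and 0.255 to 0.417 with TCPOBOP in wild-type livers, without overlap. In humanized livers it was at 2.60 to 3.96 with vehicle and 1.27 to 3.44 with TCPOBOP, with overlap. In whole liver, fewer cells of a type and less RNA per cell cannot be told apart, and the part of stellate cell number in the fall of Cyp26b1 in humanized liver was not tested.

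**Figure D2:**
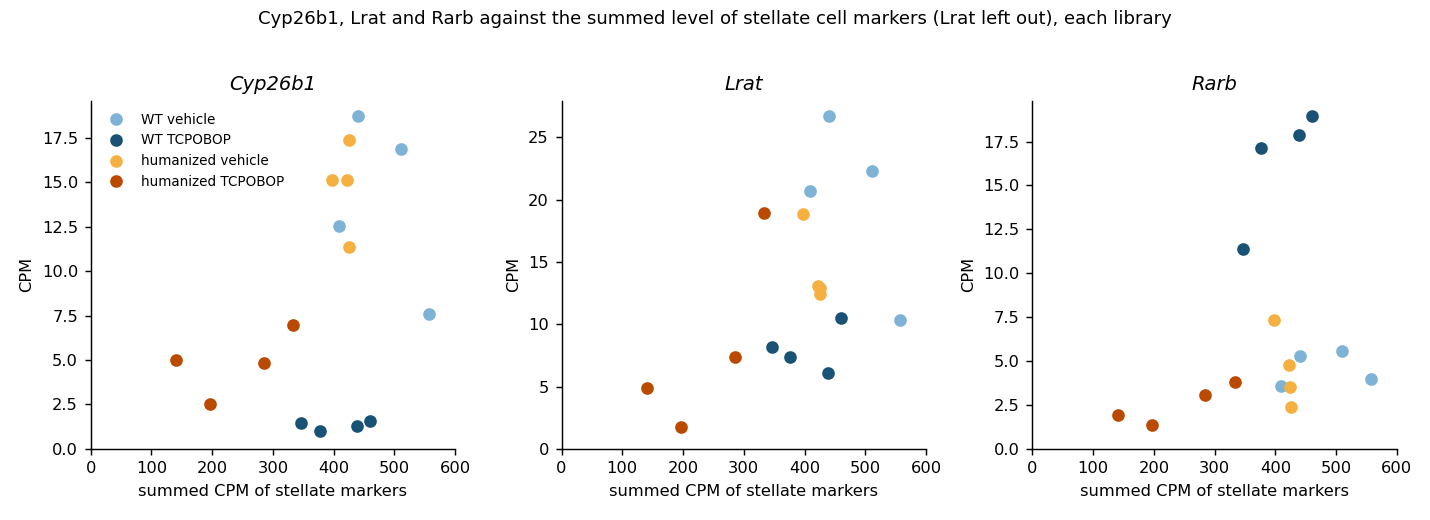
CPM of Cyp26b1, Lrat and Rarb (vertical axes) against the summed CPM of 13 stellate cell markers, Lrat left out (horizontal axes), 1 point a library. The 4 humanized TCPOBOP livers lie leftmost, between 141 and 333 CPM of summed markers, and the 4 wild-type TCPOBOP livers hold at most 1.54 CPM of Cyp26b1 at marker sums that overlap those of wild-type vehicle livers.

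Cyp26a1, the main hepatic retinoic acid hydroxylase, was at 57.0, 66.2, 13.8 and 29.3 CPM in wild-type vehicle and 51.5, 114, 34.6 and 59.6 CPM in wild-type TCPOBOP livers. In humanized livers it was at 85.4, 137, 82.3 and 53.0 CPM with vehicle and 70.1, 79.7, 24.2 and 62.4 CPM with TCPOBOP. The livers of a group differed by up to several fold, and the groups overlapped in both strains. The log2 change with TCPOBOP was 0.65 ± 0.45 SE in wild-type and -0.60 ± 0.45 in humanized liver (edgeR adjusted p = 0.531, 95% interval -1.59 to 0.39). Between vehicle livers it was higher in humanized mice by 1.11 ± 0.46 on the log2 scale, which did not pass (adjusted p = 0.1); with the replicate number as a block it was 1.28 and passed (adjusted p = 0.0173). Without wild-type vehicle replicate 2, which held the highest wild-type vehicle value, the wild-type change was 0.98 and the strain difference 1.43 (adjusted p = 0.0506). The wild-type change was 0.36 without wild-type vehicle replicate 3 and 0.23 without wild-type TCPOBOP replicate 2, the liver at 114 CPM. The humanized change was -0.30 without vehicle replicate 2 and -0.34 without TCPOBOP replicate 3 of that strain.

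Of the retinol dehydrogenases, Rdh9 and Rdh16 were far lower with TCPOBOP in wild-type liver and not lower in humanized liver, and Rdh11 was higher in wild-type liver. Rdh9 was at 98.5, 92.6, 58.0 and 37.3 CPM in wild-type vehicle and 11.5, 7.42, 5.42 and 5.20 CPM in wild-type TCPOBOP livers. In humanized mice it was at 38.7, 27.3, 25.5 and 33.2 CPM with vehicle and 55.6, 54.9, 73.9 and 52.6 CPM with TCPOBOP. The TCPOBOP livers were thus below all vehicle livers in wild-type mice and above all vehicle livers in humanized mice. The wild-type difference was 9.69-fold (log2 change -3.28 ± 0.31 SE), or -3.12 without wild-type vehicle replicate 2. The humanized one was 0.93 ± 0.29 (1.90-fold higher), which missed the threshold with edgeR (adjusted p = 0.0963) and passed with DESeq2 (0.0300) or when only the humanized groups were fitted (0.0455). The log2 change in humanized liver exceeded that in wild-type liver by 4.20 ± 0.42.

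Rdh16 was at 66.8, 54.0, 68.8 and 102 CPM in wild-type vehicle and 7.44, 12.6, 5.80 and 3.56 CPM in wild-type TCPOBOP livers. Humanized livers held 91.5, 59.1, 43.3 and 71.7 CPM with vehicle and 74.4, 72.2, 108 and 51.9 CPM with TCPOBOP. All 4 wild-type TCPOBOP livers were below the remaining 12 livers, which overlapped. The wild-type difference was 9.91-fold (log2 change -3.31 ± 0.35 SE), or -3.43 without wild-type vehicle replicate 2. The humanized change was 0.21 ± 0.32 (edgeR adjusted p = 0.797, 95% interval -0.49 to 0.91).

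Rdh9 (chr10:127776405-127792697) and Rdh16 (chr10:127801090-127815846) belong to a cluster of closely related short-chain dehydrogenase genes on mm10 chromosome 10, with Rdh1 before them and Rdh19, Rdh16f2 and Rdh7 after them. The coding sequences of Rdh9 and Rdh16 were 96.3% identical, with a longest shared run of 229 bases, and those of Rdh16 and Rdh16f2 were 91.8% identical. How reads that fit several of these genes were counted is not given in the sources used here, so the summed level is given beside the single values. Such reads, if dropped or counted in several genes, would alter the sum as well. Rdh16f2 was not among the 9 but was also listed with earlier results of these libraries known. It was at 108, 229, 131 and 119 CPM in wild-type vehicle and 30.2, 27.9, 22.1 and 14.3 CPM in wild-type TCPOBOP livers. It fell by 2.63 ± 0.30 on the log2 scale in wild-type liver (edgeR adjusted p = 1.13e-05) and changed by -0.50 ± 0.29 in humanized liver (adjusted p = 0.385), and the 2 changes differed by 2.13 ± 0.41 (adjusted p = 0.00345). The summed level of Rdh9, Rdh16 and Rdh16f2 was 258 to 375 CPM with vehicle and 23.1 to 49.2 CPM with TCPOBOP in wild-type livers, and 174 to 275 CPM with vehicle and 165 to 272 CPM with TCPOBOP in humanized livers. The sum was therefore lower in each wild-type TCPOBOP liver than in any other liver and overlapped between the humanized groups. Rdh7, more abundant, was at 1088 to 1367 CPM in wild-type vehicle and 620.3 to 853 CPM in wild-type TCPOBOP livers, a log2 change of -0.65 ± 0.16 (adjusted p = 0.0124), which was lost without wild-type TCPOBOP replicate 4 (0.0565). In humanized liver its change was -0.05 ± 0.16 (adjusted p = 0.923). Rdh1 and Rdh19 reached at most 0.711 and 0.207 CPM and were not tested.

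**Figure D3:**
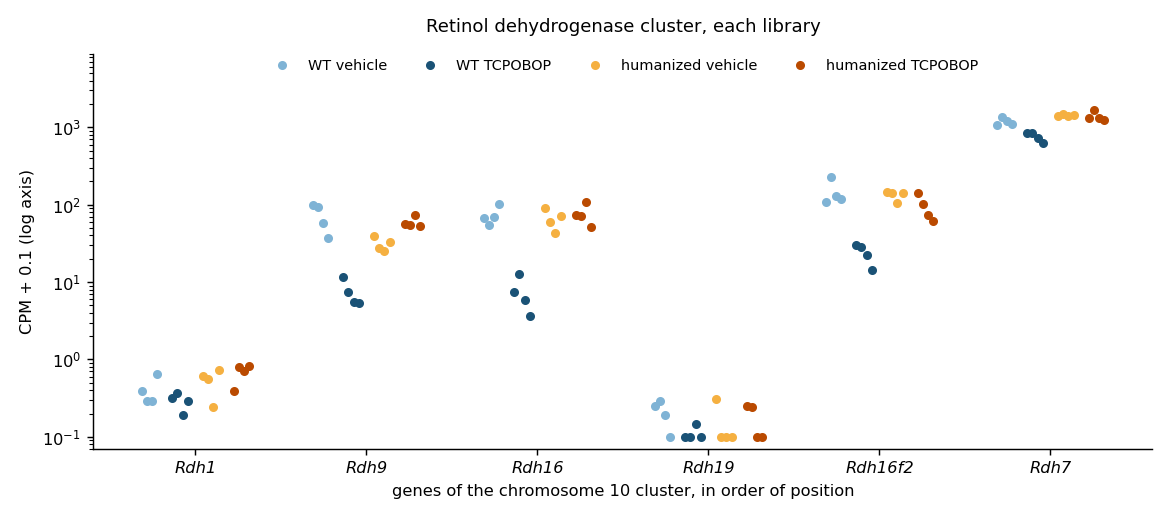
CPM plus 0.1 on a log axis for the 6 retinol dehydrogenase genes of the chromosome 10 cluster, in order of position, 1 point a library. In Rdh9, Rdh16 and Rdh16f2 the wild-type TCPOBOP points (dark blue) lie below all other points, down to 3.56 CPM in Rdh16.

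Rdh11, a retinal reductase of the endoplasmic reticulum on another chromosome (chr12:79174233-79191855), was at 99.7, 95.7, 88.5 and 93.3 CPM in wild-type vehicle and 166, 214, 155 and 184 CPM in wild-type TCPOBOP livers. Its humanized values were 89.5, 129.7, 67.8 and 121 CPM with vehicle and 69.8, 66.9, 75.1 and 70.8 CPM with TCPOBOP. The wild-type groups did not overlap, with a 1.91-fold higher level (log2 change 0.93 ± 0.18 SE). In humanized liver the change was -0.53 ± 0.18, which did not pass (edgeR adjusted p = 0.128, 95% interval -0.92 to -0.14), and the groups overlapped. Its log2 change was lower in humanized than in wild-type liver by 1.46 ± 0.26.

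The aldehyde dehydrogenases Aldh1a1, which makes retinoic acid from retinal, and its rodent relative Aldh1a7, were higher with TCPOBOP in both strains, without overlap between treatments. Aldh1a1 was at 677, 335, 1185 and 1037 CPM in wild-type vehicle and 2219, 2150.3, 2032 and 2436 CPM in wild-type TCPOBOP livers. In humanized mice it was at 855, 814, 932 and 853 CPM with vehicle and 2466, 1848, 1514 and 1523 CPM with TCPOBOP. The lowest vehicle value, 335 CPM, came from the wild-type library that stood apart. The log2 change was 1.45 ± 0.29 SE in wild-type liver, or 1.19 without that library, and Aldh1a1 rose by 1.09 ± 0.28 in humanized liver (edgeR adjusted p = 0.0493). This call lay close to the threshold: it was lost under 17 of 23 alternative settings, with adjusted p between 0.00459 and 0.152, and leaving out any single library other than wild-type vehicle replicate 2 or 3 ended it. Over these settings the change stayed between 0.94 and 1.17. The 2 strains' changes differed by -0.36 ± 0.40, given without a test. This was -0.09 without wild-type vehicle replicate 2 and -0.60 without replicate 3 of that group.

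Aldh1a7 was at 181, 175, 232 and 214 CPM in wild-type vehicle and 829.8, 863, 800.4 and 839 CPM in wild-type TCPOBOP livers. Humanized livers held 152, 197, 152 and 182 CPM with vehicle and 278, 260.4, 242 and 277 CPM with TCPOBOP. Every TCPOBOP liver was above every vehicle liver of its strain, and all 4 humanized TCPOBOP livers were below all wild-type TCPOBOP livers. The wild-type difference was 4.15-fold (log2 change 2.05 ± 0.15 SE). In humanized liver Aldh1a7 rose 1.55-fold, by 0.63 ± 0.15 on the log2 scale (edgeR adjusted p = 0.0365), a call lost under 12 of 23 settings, 8 of which left out a library, with adjusted p between 8.81e-05 and 0.130. Over these settings the change stayed between 0.58 and 0.72. It was smaller than in wild-type liver by 1.42 ± 0.21 on the log2 scale.

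Aldh1a1 (chr19:20492583-20643463) and Aldh1a7 (chr19:20692953-20727556) are neighbours, and their coding sequences were 92.0% identical. Their summed level was 509.9 to 1417 CPM with vehicle and 2832 to 3274 CPM with TCPOBOP in wild-type livers, and 1006 to 1084 CPM with vehicle and 1756 to 2745 CPM with TCPOBOP in humanized livers, so the sum too was without overlap in both strains. How reads that fit both genes were counted is not given, which bears on how far the 2 genes are separate observations. The stretches before their start sites are shown because the likeness extends there. Of the annotated start windows of Aldh1a1, the one most like that of Aldh1a7 was taken. Whether these stretches act alike was not tested. Over the last 100 bases before the start, 94 bases were identical, and the capitals mark the longest shared run of 65 bases, at chr19:20601868-20601967 (plus strand) and chr19:20727557-20727656 (minus strand) of GRCm38.p6 from RefSeq.
Aldh1a1: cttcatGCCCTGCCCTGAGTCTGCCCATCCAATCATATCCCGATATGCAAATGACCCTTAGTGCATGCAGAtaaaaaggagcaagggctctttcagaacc
Aldh1a7: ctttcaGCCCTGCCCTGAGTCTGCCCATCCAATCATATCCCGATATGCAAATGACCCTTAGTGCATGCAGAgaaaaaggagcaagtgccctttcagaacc
The other annotated start window of Aldh1a1, which lies upstream, shared 30 of 100 bases with that of Aldh1a7.

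Rbp4, which carries retinol out of the liver, stayed the most abundant of the 9 genes in every group per kb of transcript, at 1875 CPM per kb in wild-type TCPOBOP livers against 1076 for Aldh1a1. It was at 1885, 2225, 2424 and 2928 CPM in wild-type vehicle and 1624, 2145, 1633 and 1625 CPM in wild-type TCPOBOP livers. Its humanized values were 2447, 2082, 2692 and 2418 CPM with vehicle and 3405, 3027, 2341 and 1842 CPM with TCPOBOP. Of the 4 wild-type TCPOBOP livers, 3 were below all vehicle livers and the remaining liver lay within their range. The log2 change was -0.43 ± 0.21 SE in wild-type and 0.14 ± 0.21 in humanized liver (edgeR adjusted p = 0.791, 95% interval -0.31 to 0.59), the latter 0.02 without humanized TCPOBOP replicate 1.

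Rarb, the receptor gene with the DR5 shown above, was at 5.57, 3.99, 3.56 and 5.27 CPM in wild-type vehicle and 11.4, 17.9, 17.1 and 19.0 CPM in wild-type TCPOBOP livers. In humanized mice it was at 4.76, 7.33, 2.38 and 3.54 CPM with vehicle and 1.33, 1.95, 3.07 and 3.79 CPM with TCPOBOP, the last on 9 to 32 counts a library. All wild-type TCPOBOP livers were above the remaining 12 livers, and the humanized groups overlapped. The wild-type level was 3.57-fold higher (log2 change 1.83 ± 0.31 SE, or 1.77 without wild-type vehicle replicate 2). The humanized change was -0.81 ± 0.35 (edgeR adjusted p = 0.227, 95% interval -1.56 to -0.06), and it was -0.59 without humanized TCPOBOP replicate 1 and -0.46 without humanized vehicle replicate 2. Rarb is also expressed in stellate cells, and the humanized TCPOBOP livers with the lowest Rarb were the 2 with the lowest summed stellate markers, at 198 and 146 CPM. Whether the marker level had a part in these values was not tested. The 2 DR5 genes thus had unlike values in wild-type liver: all 4 TCPOBOP livers were above the vehicle range for Rarb, and 1 of 4 was for Cyp26a1.

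Between the strains under vehicle, 1 of the 9 genes, Rdh9, passed the test. It was lower in humanized than in wild-type liver by 1.20 ± 0.29 on the log2 scale (2.29-fold, edgeR adjusted p = 0.015), with 3 of 4 humanized livers below all wild-type livers. The count of 1 in 9 stands beside 16.1% of all genes called in this comparison (7.11% higher, 8.95% lower), which uses the same wild-type vehicle livers as the wild-type TCPOBOP comparison. Without humanized vehicle replicate 3 the difference was -1.11 and the call was lost (adjusted p = 0.0507). Leaving out wild-type vehicle replicate 2 gave -1.05 (adjusted p = 0.0262). In all 9 genes the groups overlapped at 1 liver or more, whereas 26.4% of all genes had groups without overlap (14.4% higher, 12% lower). The log2 differences of the remaining 8 genes ran from -0.23 ± 0.15 for Aldh1a7 (adjusted p = 0.273) to the 1.11 of Cyp26a1. Cyp26b1, Aldh1a1, Rbp4 and Rarb lay within 0.1 of 0, at 0.08 ± 0.28, 0.09 ± 0.28, 0.03 ± 0.21 and -0.02 ± 0.33, and at -0.13, -0.17, -0.01 and -0.08 without wild-type vehicle replicate 2.

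The differences between the strains' TCPOBOP changes were, for the 9 genes, 4.20 for Rdh9, 3.52 for Rdh16, 1.79 for Cyp26b1 and 0.57 for Rbp4 upward, and -2.64 for Rarb, -1.46 for Rdh11, -1.42 for Aldh1a7, -1.25 for Cyp26a1 and -0.36 for Aldh1a1 downward. They are given without a test, because each contains the wild-type change. Cyp26b1, Aldh1a1 and Aldh1a7 had changes of 1 sign in both strains, while for the other 6 (Cyp26a1, Rdh9, Rdh16, Rdh11, Rbp4 and Rarb) the point estimates had opposite signs.

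**Figure D4:**
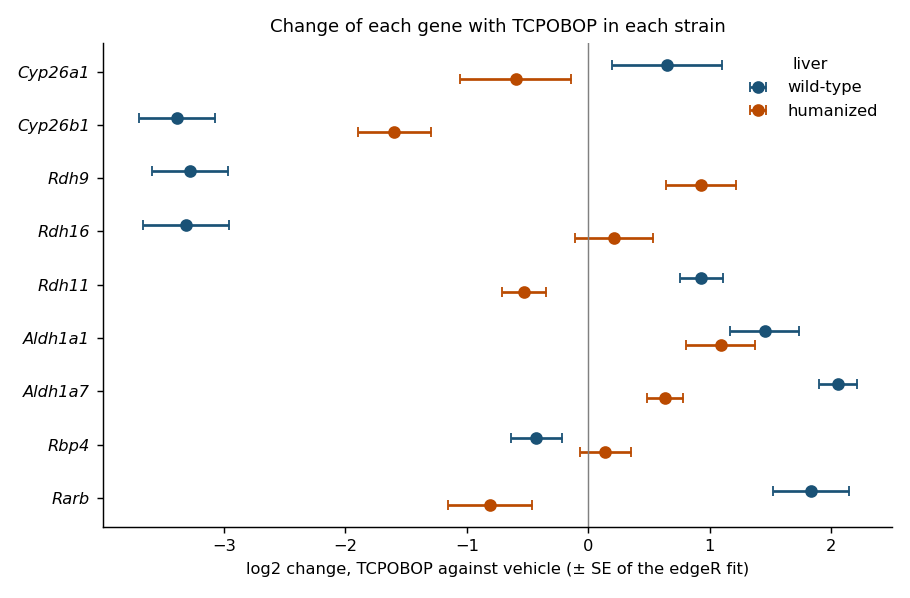
Log2 change between TCPOBOP and vehicle (horizontal axis, with SE from the edgeR fit of 16 libraries) for each gene, in wild-type liver (blue) and humanized liver (orange). Cyp26b1, Rdh9 and Rdh16 lie between -3.28 and -3.39 in wild-type liver, and only Cyp26b1, at -1.60, is far below 0 in humanized liver.

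Around the 9 genes, 55 further genes of retinoid metabolism were listed by role, of which 40 had enough counts to be tested. These too were listed with earlier results of these libraries known. Nothing is therefore read from their counts in any comparison, and their p-values are no independent test. Of the 15 that were not, Cdx1 had no counts in any library and Aldh1a2 reached at most 0.733 CPM. In wild-type liver 3 of the 40 rose with TCPOBOP (Aox1, Ces1d and Rarres1) and 6 fell (Rdh7, Rdh16f2, Adh4, Aox3, Lipe and Ttr), beside 13.1% of all genes called (8.1% higher, 4.99% lower), with a median log2 change of -0.19 against -0.02. In humanized liver 1 of 40 rose (Rarres1) and none fell, beside 2.51%, with a median of 0.03. The count in wild-type liver ranged from 4 to 12 when single libraries were left out, and was 4 without wild-type TCPOBOP replicate 4. In humanized liver it ranged from 1 to 3, with 2 without humanized TCPOBOP replicate 1 and 3 without wild-type vehicle replicate 2.

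Among the genes that interconvert retinol and retinal, 3 of 13 tested fell in wild-type liver, beside 4.99% of all genes. They were Rdh16f2 and Rdh7, described above, and Adh4, an alcohol dehydrogenase with activity on retinol. Adh4 was at 115, 54.7, 193 and 166 CPM in wild-type vehicle and 80.8, 60.2, 66.0 and 37.4 CPM in wild-type TCPOBOP livers. Humanized livers held 97.0, 136, 123 and 111 CPM with vehicle and 189.9, 198, 187 and 191 CPM with TCPOBOP. The wild-type groups overlapped through the vehicle library that stood apart, and the humanized groups did not overlap. Adh4 fell by 1.11 ± 0.29 on the log2 scale in wild-type liver (edgeR adjusted p = 0.0151), had a change of 0.71 ± 0.29 in humanized liver (adjusted p = 0.2), and the difference between them was 1.83 ± 0.41 (adjusted p = 0.0105). The wild-type call was lost when only the 2 wild-type groups were fitted (adjusted p = 0.0705) and when wild-type vehicle replicate 3 (0.0688) or TCPOBOP replicate 4 (0.0649) of that strain was left out. Adh1, the main liver alcohol dehydrogenase, changed by -0.01 ± 0.23 in wild-type and 0.09 ± 0.23 in humanized liver (adjusted p = 0.993 and 0.89). Dhrs3, which reduces retinal to retinol and is itself a retinoic acid target, had a wild-type change of -0.48 ± 0.19 without overlap that did not pass (adjusted p = 0.111).

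The aldehyde oxidases, which can oxidize retinal, went opposite ways in wild-type liver. Aox1 rose by 1.31 ± 0.19 on the log2 scale (edgeR adjusted p = 0.00014), from 93.9 to 140.3 CPM over the vehicle livers to 254 to 347 CPM over the TCPOBOP livers. Aox3 fell by 1.59 ± 0.35 (adjusted p = 0.00438), from 485 to 1051 CPM to 213 to 322 CPM. Neither was called in humanized liver, where the changes were -0.11 ± 0.19 and 0.58 ± 0.34 (adjusted p = 0.82 and 0.401). The difference between strains passed for both, at -1.42 ± 0.27 for Aox1 (adjusted p = 0.00344) and 2.16 ± 0.49 for Aox3 (0.0104).

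Of 7 genes of retinyl ester storage and hydrolysis, the ester-forming Lrat had a wild-type change of -1.31 ± 0.44 on the log2 scale that narrowly missed the threshold (edgeR adjusted p = 0.055). It was at 22.3, 10.4, 20.7 and 26.7 CPM in wild-type vehicle and 8.20, 6.08, 7.39 and 10.5 CPM in wild-type TCPOBOP livers, so that only the vehicle library that stood apart overlapped the treated ones. Without that library the change was -1.53 and passed (adjusted p = 0.021). In humanized mice Lrat was at 13.05, 18.8, 12.9 and 12.4 CPM with vehicle and 1.77, 4.88, 7.37 and 18.9 CPM with TCPOBOP, a change of -0.78 ± 0.45 (adjusted p = 0.389). Lrat is the defining stellate cell gene, and its treated humanized livers stood in the order of their summed stellate markers except between replicates 1 and 2. Lipe, the hormone-sensitive lipase that can hydrolyse retinyl esters, fell by 0.86 ± 0.21 in wild-type liver (adjusted p = 0.00876), from 12.5 to 22.0 CPM to 7.22 to 11.1 CPM, with a strain difference of 1.39 ± 0.29 (adjusted p = 0.0068). Ces1d, a carboxylesterase with such activity, rose by 0.76 ± 0.24 (adjusted p = 0.0426), a call lost under 13 alternatives, with adjusted p up to 0.129.

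In binding and transport, 1 of 3 genes tested was called in wild-type liver and none in humanized liver, beside 13.1% and 2.51% of all genes. Ttr, the plasma partner of Rbp4, fell by 0.72 ± 0.22 on the log2 scale in wild-type liver (edgeR adjusted p = 0.0378), from 3273 to 3798 CPM to 1684 to 2622 CPM, and changed by 0.01 ± 0.22 in humanized liver (adjusted p = 0.993). The Ttr call was lost under 9 alternatives, with adjusted p up to 0.134. Stra6l, a retinol transporter of the liver, was not called in either strain, at 0.23 ± 0.16 and -0.38 ± 0.16 (adjusted p = 0.42 and 0.22).

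None of the 5 further retinoid receptor genes tested was called with TCPOBOP in either strain. Rara, which encodes the alpha form of RAR, changed by -0.19 ± 0.26 and 0.28 ± 0.26 on the log2 scale in wild-type and humanized liver (edgeR adjusted p = 0.727 and 0.622). Rxra, the main hepatic RXR, which is also the partner of CAR and PXR, was at 679.6, 782, 609 and 536 CPM in wild-type vehicle and 349.8, 487, 448 and 421 CPM in humanized vehicle livers, without overlap. It was lower in humanized liver by 0.61 ± 0.18 (adjusted p = 0.0282), a call lost without humanized vehicle replicate 1, 3 or 4 or wild-type vehicle replicate 1, with adjusted p up to 0.0934. Its change with TCPOBOP was -0.19 ± 0.18 in wild-type and 0.55 ± 0.18 in humanized liver (adjusted p = 0.575 and 0.104).

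Of the 4 further retinoic acid target genes tested, only Rarres1 was called with TCPOBOP in the main fit. Rarres1, first described as a gene that retinoids induce in skin, rose in both strains. It was at 39.6, 13.4, 62.4 and 113 CPM in wild-type vehicle and 167, 117, 153 and 180.1 CPM in wild-type TCPOBOP livers. In humanized mice it was at 10.4, 12.9, 14.6 and 11.9 CPM with vehicle and 66.7, 87.8, 59.5 and 72.0 CPM with TCPOBOP. Neither strain showed overlap between treatments, and of the wild-type vehicle livers only replicate 2 lay within the range of the humanized vehicle livers. Rarres1 rose by 1.44 ± 0.39 on the log2 scale in wild-type (edgeR adjusted p = 0.0188) and by 2.53 ± 0.41 in humanized liver (0.00434). The wild-type call was lost without vehicle replicate 1 (0.0618) or TCPOBOP replicate 4 (0.0565) of that strain, or when only the wild-type groups were fitted (0.0886). The strains' changes were not called different (1.09 ± 0.55, adjusted p = 0.269). It was lower in humanized than in wild-type vehicle liver by 2.20 ± 0.41 (adjusted p = 0.00451). The transglutaminase gene Tgm2 was at 398, 1793, 155 and 144 CPM in wild-type vehicle and 426 to 613 CPM in wild-type TCPOBOP livers, a change of -0.20 ± 0.55 (adjusted p = 0.879). Without wild-type vehicle replicate 2 that change was 1.23 (adjusted p = 0.0108), so 1 library set its direction. Rarres2 changed by 0.42 ± 0.30 in wild-type and -0.07 ± 0.30 in humanized liver (edgeR adjusted p = 0.442 and 0.942).

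Under vehicle, 6 of the 40 genes differed between strains, beside 16.1% of all genes: Dgat1 and Rarres2 were higher in humanized liver, and Bco1, Rxra, Tgm2 and Rarres1 lower. Bco1, which cleaves carotene to retinal, was lower by 1.16 ± 0.29 on the log2 scale (edgeR adjusted p = 0.0178), at 5.81 to 13.4 CPM in wild-type and 2.91 to 4.80 CPM in humanized livers, and the call was lost without humanized vehicle replicate 1 (0.0607). Dgat1, an acyltransferase that also esterifies retinol, was higher by 0.70 ± 0.16 (adjusted p = 0.0122) and without overlap. Rarres2 was higher by 0.97 ± 0.31 (adjusted p = 0.0394), a call lost under 10 alternatives, with adjusted p up to 0.1. The Tgm2 difference of -1.71 ± 0.56 (adjusted p = 0.0468) was -0.29 without wild-type vehicle replicate 2 (adjusted p = 0.486). The count of 6 ranged from 2 to 10 when single libraries were left out: it was 2 without humanized vehicle replicate 1, 3 without humanized vehicle replicate 3 or 4 or wild-type vehicle replicate 1, and 10 without humanized TCPOBOP replicate 1. In this comparison 6 of 9 Kupffer cell markers and 3 of 10 sinusoidal endothelial markers were also lower in humanized liver, beside 8.95% of all genes. The part of those cells in the differences was not tested.

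The TCPOBOP change differed between strains for 5 of the 40 genes, beside 7.46% of all genes tested (3.48% higher, 3.98% lower). It was higher in humanized liver for Rdh16f2, Adh4, Aox3 and Lipe and lower for Aox1, and the count ranged from 5 to 8 when single libraries were left out, with 8 without wild-type vehicle replicate 2. Of these, Adh4, Aox3, Rdh16f2 and Lipe fell in wild-type liver. There 5 of 8 periportal marker genes fell as well, beside 4.99% of all genes, with a median of -1.24 on the log2 scale. Pericentral markers were split there, with 2 of 9 higher and 4 lower, beside 8.1% and 4.99% of all genes. Their median was -0.60. In the strain difference, 5 of 9 pericentral markers were higher and 1 was lower, with a median of 1.29. For periportal markers, 2 of 8 were higher and none lower, with a median of 1.15. The part of liver zonation in the retinoid genes was not tested.

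**Figure D5:**
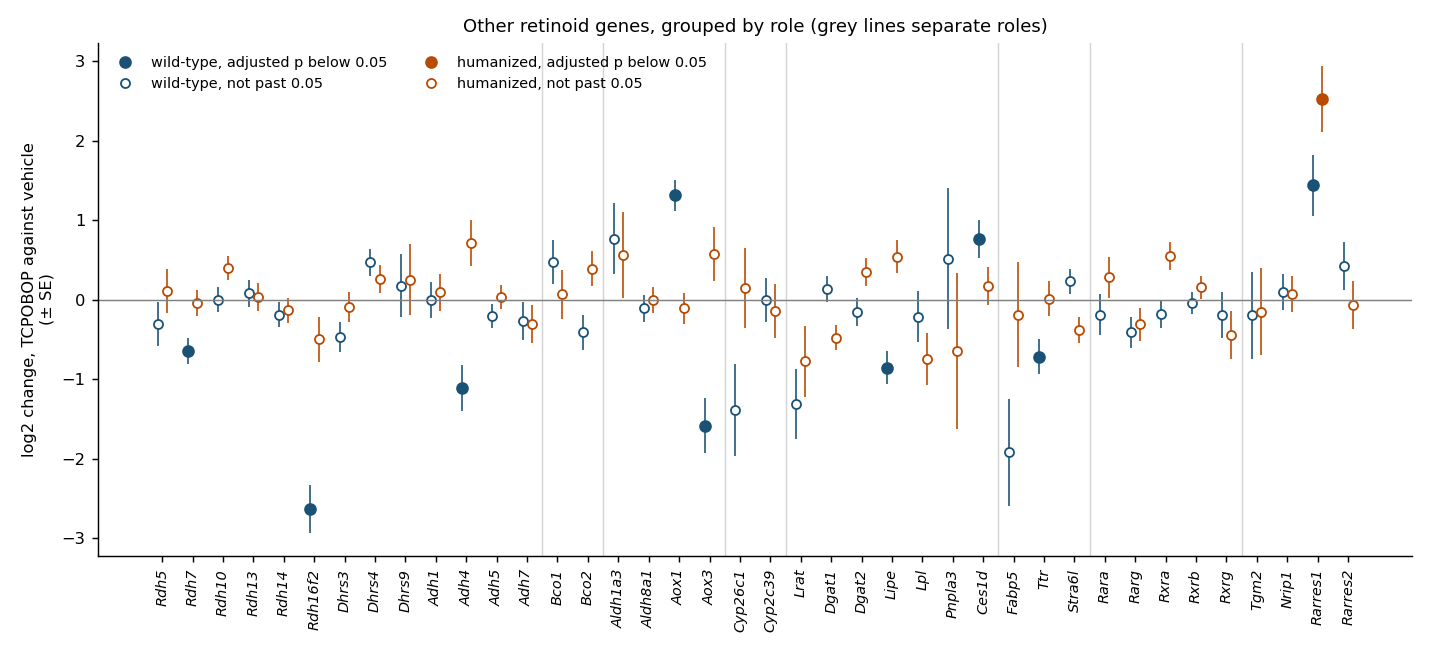
Log2 change between TCPOBOP and vehicle (vertical axis, ± SE) for the 40 further retinoid genes tested, grouped by role, in wild-type (blue) and humanized liver (orange), filled where the edgeR adjusted p was below 0.05. Filled blue points mark the 9 genes called in wild-type liver and the single filled orange point is Rarres1, at 2.53.

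For Cyp26a1, Cyp26b1, Rdh9 and Rdh16, the genes of most similar pattern were sought among 9746 genes with a mean of at least 5 CPM, by the root mean square difference of centred log2 CPM over the 16 libraries. Rdh16 was nearest to Cyp2c38 (0.54), Acot1 (0.57) and Cyp2c23 (0.62), against its own standard deviation of 1.52 over the libraries. Rdh9 was nearest to Adrb3 and Hsd3b2 (both 0.64) and Sntg2 (0.67), against 1.34. Cyp26b1 was nearest to 4833411C07Rik (0.68), Srgap3 (0.70) and Cyp2c38 (0.71), against 1.40. For Cyp26a1, Abhd14a (0.52), Papss1 (0.53) and Cib1 (0.53) were nearest, but its own standard deviation was only 0.82, so these genes followed it less closely.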

How the data were processed

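Polyadenylated liver RNA of 16 mice was sequenced. The deposited values are counts, whole numbers for 40458 RefSeq accessions, made by the authors with STAR, DESeq2 and mm10 named, without roles or versions, in the submitters' processing notes. The counting program, strandedness or multi-mapping setting is not given in the sources used here. Of counts of 20 or more, 74.9% were even, against 75% for halved, rounded counts, so a count may stand for 2 reads and counting floors are approximate. Accessions were named through RefSeq (40219) or GENCODE (125), and each gene took its accession of highest mean count. In edgeR 4.0.16 (limma 3.58.1, R 4.3.3), 1 fit of all 16 libraries had 4 group means, filterByExpr, TMM and quasi-likelihood F tests, two-sided, with Benjamini-Hochberg adjustment over 12913 genes and a threshold of 0.05. Residual degrees of freedom were 12, with a common biological variation of 0.259. The script was tested on simulated data. Samples were grouped by their titles. Lists hold known retinoid genes and cell markers. The 9 members and all lists were chosen with earlier results of these data known. Named further genes were those called in a comparison, up to 12 by smallest p, and Lrat, Rara, Rxra, Aldh1a2, Dhrs3, Adh1, Ttr, Stra6l and Tgm2; 1 further gene of this rule and of the lists is not reported here, and list counts leave it out. Alternatives were DESeq2 1.42.0, RLE scaling, no filter, summed accessions, only the 2 groups compared, thinning to the smallest library, a replicate block and leaving out each library. Coding sequences were the longest open reading frames of GENCODE transcripts.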

Additional observations from a re-analysis of the deposited data

Results flagged for a closer look

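A single liver lay far from the other 3 of its group in 8 of 112 groups of 4 livers examined, and chance alone flags about 1 group in 20. Among the 9 genes these were Rdh9 in humanized TCPOBOP replicate 3, at 73.9 CPM where the others had 52.6 to 55.6 CPM, and Rbp4 in wild-type TCPOBOP replicate 2, at 2145 CPM against 1624 to 1633 CPM. Wild-type vehicle replicate 2, a library that stood apart in general, held 1793 CPM of Tgm2 against 144 to 398 CPM. The further values were Lrat at 18.8 CPM in humanized vehicle replicate 2 (others 12.4 to 13.05), Stra6l at 232 CPM in wild-type TCPOBOP replicate 4 (others 259 to 264), and Rdh16f2 at 105 CPM in humanized vehicle replicate 3 (others 140.5 to 145). Ces1d stood out at 843 CPM in wild-type TCPOBOP replicate 2 (others 652 to 673) and at 815 CPM in humanized TCPOBOP replicate 3 (others 366 to 429).

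The change with TCPOBOP differed between the strains by edgeR's interaction test for 5 further retinoid genes, which were listed with earlier results known. The difference, humanized minus wild-type on the log2 scale, was 2.13 for Rdh16f2 (adjusted p = 0.00345), 1.83 for Adh4 (0.0105), -1.42 for Aox1 (0.00344), 2.16 for Aox3 (0.0104) and 1.39 for Lipe (0.0068). Among the 9 genes, all Rdh9 values with TCPOBOP lay below the vehicle range in wild-type liver and above it in humanized liver. The humanized change missed the threshold (edgeR adjusted p = 0.0963). The difference of 4.20 between the strains' changes was not tested because Rdh9 was picked with the wild-type change known.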

How the results depend on the processing

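Over 23 alternative settings, 16 of which left out a library, a tested value counted as kept if its direction and side of the threshold stayed. Untested wild-type and strain-difference values counted as kept if they moved by less than the gene's spread between livers of a group. All of them counted as kept, which says little, as leaving out a single liver can hardly move a value that far. Cyp26a1 in wild-type liver, for example, ranged from 0.23 to 0.98 over the settings. Of the 819 values of the 9 genes, 767 were kept, with the untested ones among them. A further 30 kept the direction but no longer passed and 3 newly passed. The remaining 19 changed sign, none of which passed in either fit. Of these, 18 were differences between vehicle livers, where single omissions gave -0.13 to 0.26 for Cyp26b1, -0.33 to 0.070 for Rdh16, -0.037 to 0.27 for Rdh11, -0.17 to 0.34 for Aldh1a1, -0.086 to 0.14 for Rbp4 and -0.36 to 0.18 for Rarb. Rbp4 was also at -0.0026 with DESeq2 and with RLE scaling and -0.0062 with no filter, and Rarb at 0.0095 with summed accessions and 0.11 with thinned libraries. The remaining one was Rdh16 in humanized liver (-0.0060 to 0.40). In humanized liver the rise of Aldh1a1 no longer passed with summed accessions (1.10), thinned libraries (1.09) or the replicate block (1.10), and was 0.94 to 1.17 when single libraries were left out. The rise of Aldh1a7 no longer passed with no filter (0.66), only the 2 groups compared (0.64), thinned libraries (0.63) or the replicate block (0.63), and was 0.58 to 0.72 without single libraries (0.58 to 0.67 in the 8 cases that lost the call). The change of Rdh9 passed with DESeq2 (0.96) and with only the 2 groups compared (0.94). The causes were not tested. Calls over all genes in humanized liver numbered 324, against 765 with DESeq2, 182 with only the 2 groups compared, 141 with thinned libraries and 960 without humanized TCPOBOP replicate 1. Between vehicle livers they numbered 2074, against 3425 without that library, and 621, 770 and 794 without humanized vehicle replicates 1, 3 and 4.

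Of the 40 further genes, the count called in humanized liver moved from 1 to 2 with DESeq2 (Rxra added) and to 2 with only the 2 groups compared (Adh4 added). Leaving out single libraries gave 4 to 12 calls in wild-type liver, 1 to 3 in humanized liver, 2 to 10 between vehicle livers and 5 to 8 for the strain difference. Of values of further named genes, 24 changed sign, and 2 of them passed, both without wild-type vehicle replicate 2: Tgm2 in wild-type liver (1.23, adjusted p = 0.0108, from -0.20; -0.53 to 1.23 over single omissions) and the strain difference of Tgm2 (-1.37, 0.0373, from 0.05; -1.37 to 0.38). With the replicate block these were 0.31 and -0.47. Among the values that did not pass, single omissions gave -0.18 to 0.20 for Adh1, -0.40 to 0.14 for Rara in wild-type liver, -0.091 to 0.20 for Adh1, -0.24 to 0.072 for Dhrs3 and -0.14 to 0.16 for Ttr in humanized liver, and -0.10 to 0.27 for Adh1 and -0.27 to 0.89 for Lrat as strain differences. Adh1 in wild-type liver was at 0.024 with no filter, 0.0041 with summed accessions and 0.0062 with the block, and Ttr in humanized liver at -0.033 with the block. Taken over all groups, same-numbered libraries' deviations correlated at over 0.1 in 6 of 24 pairs (-0.24 to 0.58, median 0.0025), and 5 of 16 libraries correlated best with their own number. Between the wild-type groups, 3 of 4 pairs were over 0.1 (0.0998 to 0.58), the highest for replicate 2. Whether same-numbered wild-type livers shared a factor was not tested. With the replicate block, Cyp26a1 passed between vehicle livers (1.28, adjusted p = 0.0173), Lrat passed in wild-type liver (0.0455), and Tgm2 (0.101) and Rarres2 (0.0544) no longer passed between vehicle livers. Low depth limits Cyp26b1 and Rarb, with as few as 17 and 9 counts in a library.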
